A study of Homo sapiens with 6 samples.

Results

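Mitochondrial ribosomal protein genes were examined in RNA-seq data of 3 wild-type (WT) and 3 FGFR2 knockout (KO) HaCaT cell lines, with 1 library per line. They were chosen by symbol, as protein-coding genes whose symbol starts with MRPS or MRPL followed by a digit. This gave 78 of the 21475 genes in the tables, of which 29 have MRPS symbols and 49 have MRPL symbols. HaCaT is a human keratinocyte line that became immortal spontaneously. For the knockout, Cas9 and a guide against an exon of FGFR2, the gene of fibroblast growth factor receptor 2, were brought into these cells, which were then sorted as single cells and expanded. A KO line is therefore 1 clone. The study gives its sequenced WT lines as clones in one place and counts the original population among its WT lines in another, and the labels do not say whether a WT replicate is that population. All 6 lines were grown in medium with serum, and the labels name no other treatment. Where 3 values of a genotype are listed, they are those of replicates 1, 2 and 3 in this order.

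Mitochondria have ribosomes of their own, which translate the mRNAs of mitochondrial DNA into subunits of the respiratory chain and of ATP synthase. The ribosomal RNAs come from mitochondrial DNA, whereas all ribosomal proteins are encoded in the nucleus, made in the cytosol and imported. The small subunit decodes the mRNA and the large subunit joins the amino acids. Some of the proteins have counterparts in bacterial ribosomes, and others occur only in mitochondria.

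The nuclear genes of this ribosome are spread, here over 21 chromosomes, so their promoters are shown for what they have in common. A table of RefSeq promoter windows (GRCh38.p14), from 250 bases before to 50 bases after the start, held 69 of the 78 genes. MRPL46 and MRPS11 are neighbours on opposite strands of chromosome 15, and their windows overlap. The 110 bases just before the RefSeq start are printed below for 3 genes whose levels were higher in each KO library than in each WT library and that hold the ETS core (MRPL3, MRPS26 and MRPL58), for 1 that holds the NRF1 letters (MRPL17), and for the 2 genes with the lowest log2 fold changes (MRPL43 and MRPL33). They are written 5′ to 3′ on the strand of the gene, and capitals mark the ETS core CCGGAAG in either orientation or, in MRPL17, GCATGCGC in either orientation. They lie at chr3:131502972-131503081 (minus strand), chr20:3045942-3046051 (plus strand), chr17:75012560-75012669 (plus strand), chr11:6683341-6683450 (minus strand), chr10:100987498-100987607 (minus strand) and chr2:27771609-27771718 (plus strand). In MRPL3, MRPL43 and MRPL33 the last bases fall inside the longest GENCODE gene model.
MRPL3: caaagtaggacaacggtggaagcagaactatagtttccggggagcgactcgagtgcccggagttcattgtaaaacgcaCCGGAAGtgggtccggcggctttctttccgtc
MRPS26: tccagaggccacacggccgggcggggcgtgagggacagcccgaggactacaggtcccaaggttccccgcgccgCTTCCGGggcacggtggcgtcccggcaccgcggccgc
MRPL58: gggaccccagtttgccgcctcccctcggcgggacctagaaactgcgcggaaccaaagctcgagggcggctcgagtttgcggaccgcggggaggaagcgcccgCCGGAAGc
MRPL17: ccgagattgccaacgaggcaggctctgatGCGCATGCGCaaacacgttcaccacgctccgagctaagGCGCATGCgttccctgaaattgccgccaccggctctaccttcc
MRPL43: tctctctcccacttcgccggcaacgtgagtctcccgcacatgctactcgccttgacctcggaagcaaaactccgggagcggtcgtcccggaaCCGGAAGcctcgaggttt
MRPL33: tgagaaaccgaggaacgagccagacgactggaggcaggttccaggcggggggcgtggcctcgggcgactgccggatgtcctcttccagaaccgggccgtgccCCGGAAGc
The 300-base windows were searched on both strands for CCGGAAG, the core bound by ETS factors, GCATGCGC, a part of the palindrome bound by NRF1, AAGATGGCG, bound by YY1, and CACGTG, the E-box, which is its own reverse complement. None of the 4 motifs contains another. CCGGAAG was in 29 of the 69 member windows (42.0%), in 10.7% of all 27305 windows and in 20.2% of the 9809 windows of genes tested below. AAGATGGCG was in 13 member windows (18.8%), 1.85% of all windows and 4.11% of those of tested genes. GCATGCGC was in 6 member windows (8.7%), against 3.27% and 5.57%. The E-box was in 6 as well (8.7%), against 7.43% and 10.1%. The ETS core was nearly equally frequent in windows of MRPS genes (12 of 27) and of MRPL genes (17 of 42). It was in 14 of 28 windows of genes that were higher in every KO library than in every WT library, and in 15 of 41 of the other members. MRPL43 and MRPL33, printed above, hold it too and had lower mean levels in KO. These matches describe the letters of the windows; no binding was measured.

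The level of a gene is given in FPKM, the number of fragments per kb of transcript, scaled to the depth of the library, so that levels can be compared between genes. In bulk RNA, more cells that express a gene and more RNA per cell cannot be told apart. FGFR2, the targeted gene, was at 21.6, 39.7 and 15.02 FPKM in WT and at 3.04, 2.26 and 4.31 FPKM in KO. Each KO line lay below each WT line, as labelled. The estimated depth was between 67500000 and 87700000 fragments per library, and the lowest member value in any library rested on about 254 fragments per kb of transcript. The keratinocyte markers KRT5, KRT14, TP63, ITGA6, ITGB4 and CDH1 had mean levels between 138 and 9277 FPKM. Of the markers of other cell types, the sum of 6 fibroblast markers was 33.2 FPKM in WT replicate 2, where DCN was at 15.5 FPKM, and between 6.91 and 15.3 FPKM in the other libraries. The sum of 3 endothelial markers was 18.1 to 27.2 FPKM in WT and 5.82 to 17.5 FPKM in KO, most of it from VWF. In WT replicate 2 CDH5 was at 4.92 FPKM as well, and in the other libraries it was at 0.128 FPKM or less. Sums of 5 melanocyte and of 5 leukocyte markers were at most 2.44 and 1.90 FPKM, with SOX10 at 0 in all libraries. WT replicate 2 and KO replicate 3 differed most from each other over all tested genes, with an SD of the log2 differences of 0.86, against 0.35 between WT replicates 1 and 3. The part of these differences in the results below was not tested.

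All 78 genes were expressed in every library, with means over the 6 libraries between 6.57 and 281 FPKM and a median of 40.8 FPKM. All passed the filter for testing, a mean of at least 0.5 FPKM, as did 12241 genes in total. MRPL51, a large-subunit protein without a bacterial counterpart, had the highest level. It was at 275, 228 and 297 FPKM in WT and at 300.4, 268 and 320.0 FPKM in KO. These ranges overlap, and the log2 fold change was 0.16 ± 0.16 (SE).

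Next by level were MRPL3, MRPS34, MRPL37, MRPL9 and MRPS24, whose mean FPKM over all libraries stood well below that of MRPL51 and close to each other. MRPS34, a mitochondria-specific protein of the small subunit, was at 102, 85.2 and 120.3 FPKM in WT and at 120.4, 122.8 and 144 FPKM in KO. WT replicate 3 and KO replicate 1 were almost equal. For MRPL37 the WT level varied from 63.5 to 112 FPKM and overlapped the KO range of 107 to 139 FPKM. MRPS24 overlapped too, with 71.2 to 118 FPKM in WT and 94.5 to 113 FPKM in KO. MRPL9, which has a bacterial counterpart, ranged from 85.6 to 99.9 FPKM in WT and from 100.1 to 135 FPKM in KO, again with almost no gap. In WT the means of these 5 genes lay between 86.5 and 103 FPKM, with SDs from 7.63 to 24.98 FPKM (n = 3), so neighbours in this order did not differ beyond their spread.

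At the low end were MRPL42 with 5.70 ± 0.48 FPKM in WT (SD, n = 3) and 7.44 ± 1.62 FPKM in KO, and MRPS6 with 6.39 ± 2.79 and 13.7 ± 3.25 FPKM. MRPL50, MRPL22, MRPL39 and MRPL57 followed, with WT means between 9.80 and 13.2 FPKM.

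When KO and WT lines were compared, 73 of the 78 genes (93.6%) had a log2 fold change above 0, compared with 60.6% of all tested genes. This number was between 67 (quantile normalization) and 75 (TPM) when the libraries were scaled in other ways. The median log2 fold change of the 78 genes was 0.34, with quartiles at 0.19 and 0.48, and that of all tested genes was 0.09. With median-of-ratios scaling, which brings the median of all tested genes to 0, that of the 78 genes was 0.24 and 70 were above 0. In 31 of the 78 genes (39.7%) all KO libraries were above all WT libraries, compared with 18.3% of all tested genes. All KO libraries were below all WT libraries in 0 members, compared with 5.77% of all genes. This number was 1 with quantile normalization (10.5% of all genes) and 1 after the median of each chromosome had been removed (11.3%).

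No single gene passed the test. With limma on log2(FPKM + 0.5) and Benjamini-Hochberg adjustment over all tested genes, 0 of 78 members and 0.0% of all tested genes reached an adjusted p of 0.05 or less together with a log2 fold change of 0.5 or more in either direction. The smallest adjusted p of a member was 0.261, which is also the smallest over the whole table. FGFR2, the targeted gene, had a log2 fold change of -2.73 ± 0.36 (SE) and this same adjusted p in limma. The test thus did not call the targeted gene either, while the study reported differentially expressed genes with its count model. That 0 members were called does not show that their levels were equal. At an unadjusted p of at most 0.05 in the same limma fit, 27 of 78 members (34.6%) were higher in KO, against 13.7% of all genes, and 0 were lower, against 3.17%. The separate lines are the replicates, so these tests measure the spread between cell lines. For a single gene, 3 lines against 3 cannot reach a p below 0.1 in an exact permutation test.

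**Figure D1:**
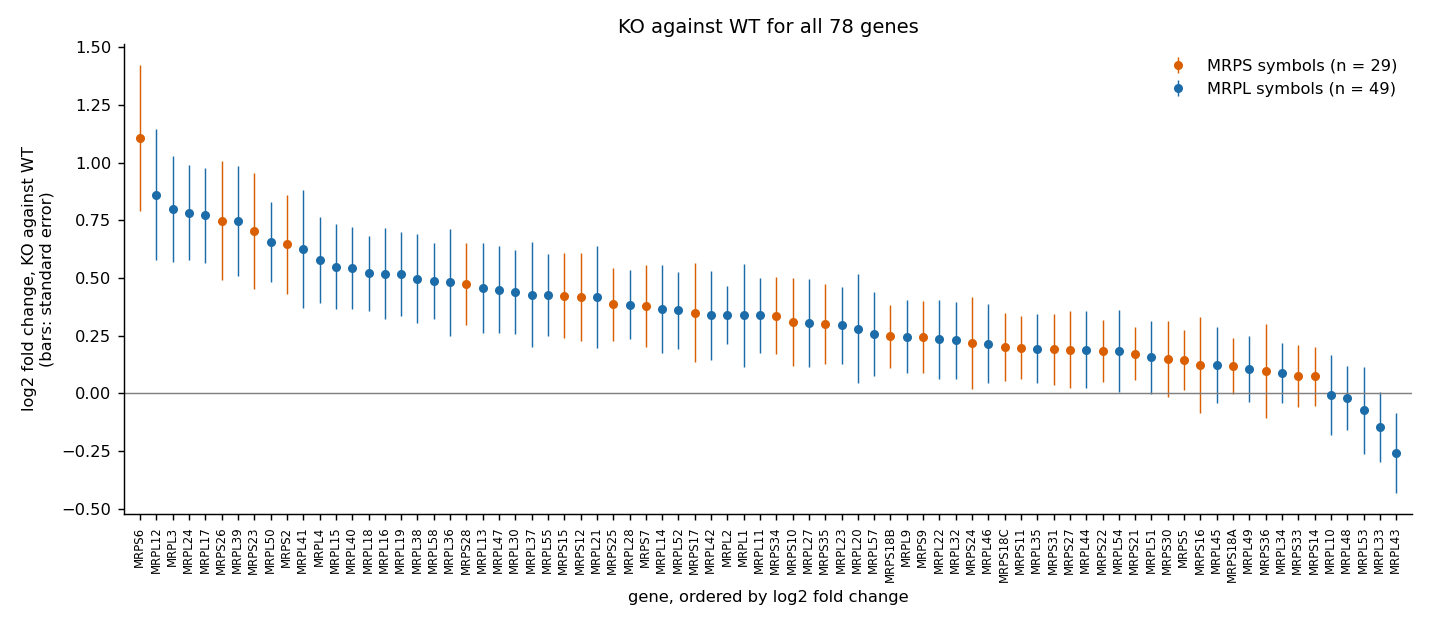
Log2 fold change of KO against WT (y axis, log2(FPKM + 0.5) scale) for the 78 genes ordered by value (x axis); points are estimates from 3 KO and 3 WT libraries, bars standard errors, and colours MRPS or MRPL symbols. In the libraries as deposited, 73 genes lie above 0 (67 after quantile normalization), from MRPS6 at 1.11 down to MRPL43 at -0.26.

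The difference was largest in KO replicate 3. It had the highest level of all 6 libraries in 68 of the 78 genes (87.2%), compared with 38.7% of all tested genes, and it was above all WT libraries in 72 (92.3%, against 45.8%). KO replicate 1 was above all WT libraries in 52 genes (66.7%, against 40.1%) and KO replicate 2 in 40 (51.3%, against 31.1%). The order KO replicate 3, 1, 2 was found in 51 genes (65.4%, against 28.8%). Relative to the mean of the WT lines, the median log2 difference of the 78 genes was 0.25, 0.17 and 0.58 in KO and -0.07, 0.02 and 0.07 in WT. For all tested genes these medians were 0.10, 0.05 and 0.15 in KO and between -0.05 and 0.03 in WT. The lowest library was WT replicate 1 for 31 genes, WT replicate 2 for 28 and WT replicate 3 for 14. The coefficient of variation between lines had a median of 11.5% in WT and 18.5% in KO, and was larger in KO in 59 of the 78 genes.

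Without KO replicate 3, the median log2 fold change was 0.20, against 0.07 for all tested genes, and 71 genes were above 0. Then 12 genes (15.4%) were higher in KO at an unadjusted limma p of at most 0.05, against 6.62% of all tested genes. KO replicates 1 and 2 were both above all WT libraries in 31 genes (39.7%), compared with 19.7% of all tested genes. Without WT replicate 1 only 8 of the 78 genes (10.3%) had an unadjusted limma p of at most 0.05, against 6.61% of all tested genes. The 78 genes then had a median log2 fold change of 0.28. With median-of-ratios scaling of all 6 libraries this number was 15 (19.2%), against 8.7%, and the KO libraries were above all WT libraries in 25 genes (32.1%), against 12.4%.

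**Figure D2:**
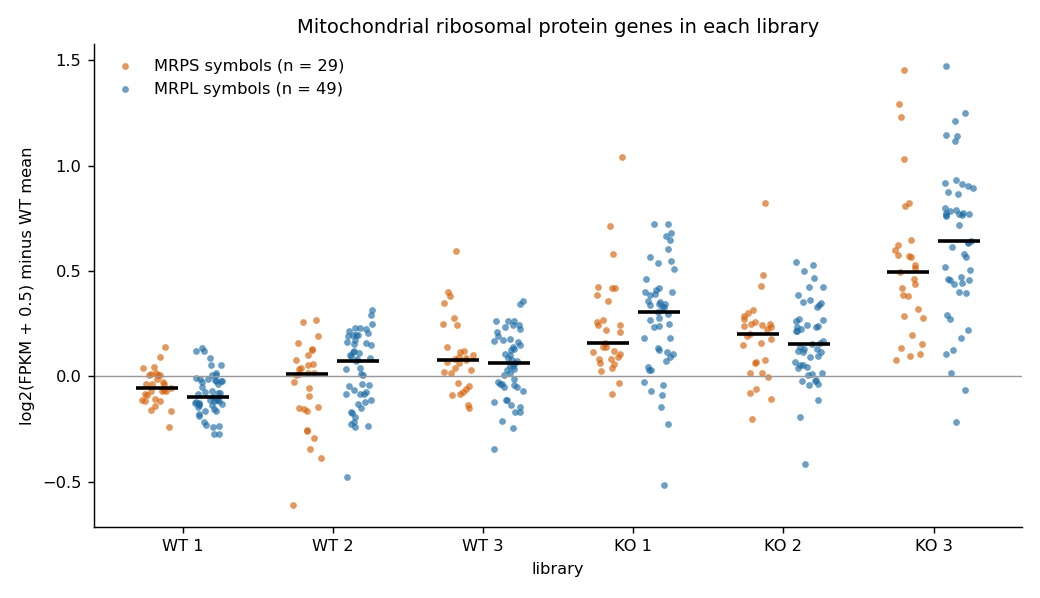
Difference of log2(FPKM + 0.5) from the mean of the 3 WT libraries (y axis) in each library (x axis); every point is 1 gene, black lines are medians, and colours separate the 29 MRPS from the 49 MRPL genes. The points of KO replicate 3 sit highest, with medians of 0.50 for MRPS and 0.64 for MRPL genes, while KO replicates 1 and 2 have medians between 0.16 and 0.31.

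Genes of both subunits were higher in KO by their sums. Summed over the 29 MRPS genes, the level was 1077, 1053 and 1198 FPKM in WT and 1271, 1261 and 1578 FPKM in KO. Summed over the 49 MRPL genes, it was 1993, 2076 and 2184 FPKM in WT and 2510, 2342 and 3229 FPKM in KO. For either subunit, each KO library was above each WT library in FPKM as deposited. Whether this holds for each subunit with other scalings was not tested. The KO mean was 1.23 times the WT mean for MRPS genes and 1.29 times for MRPL genes. Without KO replicate 3 these ratios were 1.14 and 1.16, and with scaling to the FPKM of nuclear genes they were 1.165 and 1.217. All 78 genes together held 0.544, 0.521 and 0.569% of the FPKM of nuclear genes in WT and 0.597, 0.623 and 0.739% in KO.

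The balance between the subunits did not separate the groups. The sum of MRPS genes divided by the sum of MRPL genes was 0.540, 0.507 and 0.549 in WT and 0.506, 0.538 and 0.489 in KO. The means were 0.532 ± 0.022 in WT and 0.511 ± 0.025 in KO (SD, n = 3), so their difference of -0.02 was smaller than the spread between lines. WT replicate 2 and KO replicate 1 had almost the same ratio. Symbols do not always give the place of a protein, since MRPS30 and MRPS18A belong to the large subunit in structures of the ribosome. MRPS36, counted in the MRPS sum by its symbol, was assigned to neither subunit and to no class of origin. By place, with 26 small-subunit and 51 large-subunit genes, the ratio was 0.483 ± 0.024 in WT and 0.470 ± 0.023 in KO (SD, n = 3). MRPL51 alone makes up a large share of the MRPL sum, and without it the ratio was 0.610 ± 0.036 in WT and 0.575 ± 0.033 in KO (SD, n = 3).

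**Figure D3:**
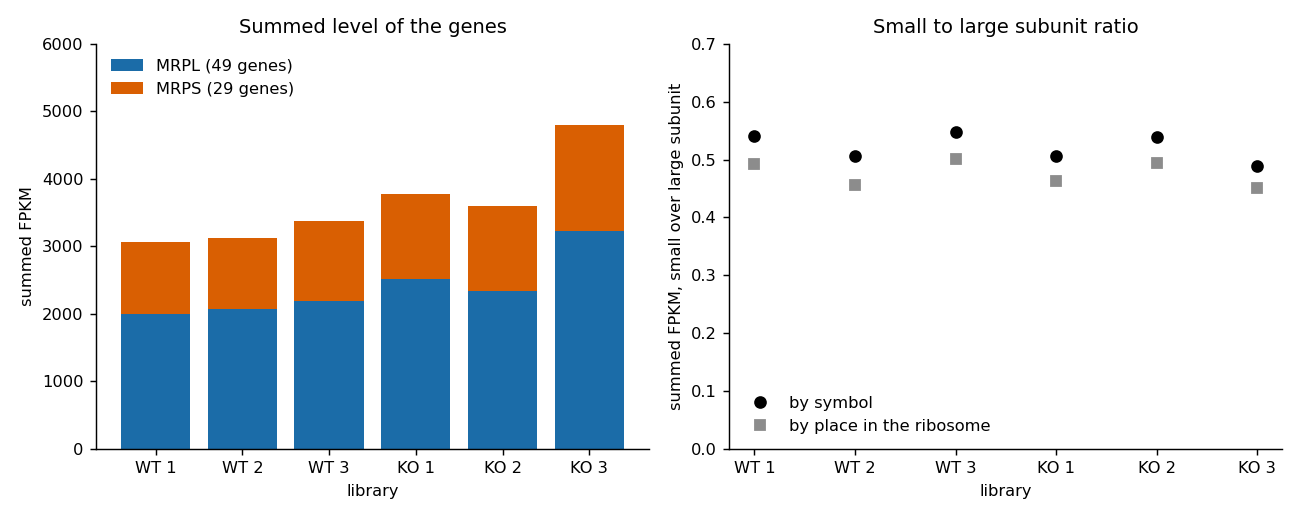
Left, summed FPKM (y axis) of the 49 MRPL and the 29 MRPS genes, stacked, in each library (x axis); right, summed FPKM of small-subunit over large-subunit genes, by symbol (circles) or by place in the ribosome (squares). The stacked sums of the KO libraries, 3604 to 4807 FPKM, lie above those of the WT libraries, 3071 to 3382 FPKM, whereas the ratios by symbol, 0.489 to 0.549 over all libraries, overlap between the groups.

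Gene by gene, all 29 MRPS genes had a log2 fold change above 0 in the libraries as deposited, although MRPS14 and MRPS33 turned negative with 3 other scalings each and MRPS16 with quantile normalization. Their median was 0.24, and 6 (20.7%) had an unadjusted limma p of at most 0.05. Of all tested genes, 60.6% were above 0 and 13.7% were higher in KO at this p. Of the 49 MRPL genes, 44 (89.8%) were above 0, the median was 0.36 and 21 (42.9%) had such a p. The 5 genes below 0 were thus all MRPL genes. The proteins were also split by origin. Among the 46 genes with a bacterial counterpart the median was 0.36, and among the 31 mitochondria-specific ones it was 0.25. In the large subunit, 15 of 30 genes with a bacterial counterpart had an unadjusted limma p of at most 0.05 and a median of 0.40, compared with 6 of 21 mitochondria-specific genes and a median of 0.22. In the small subunit both medians were close to each other (0.28 and 0.27). Summed over the genes, the mitochondria-specific class had 0.786, 0.759 and 0.745 of the FPKM of the class with bacterial counterparts in WT and 0.716, 0.714 and 0.674 in KO, so that each KO library was below each WT library. This ratio was 0.763 ± 0.021 in WT and 0.701 ± 0.024 in KO (SD, n = 3). With every gene weighted equally, the groups overlapped. The mean log2 difference from WT of the mitochondria-specific class minus that of the other class was 0.00, 0.06 and -0.06 in WT. In KO it was -0.05, -0.09 and -0.11. No p is given for differences between these classes.

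The genes with the smallest p values in limma were mostly of the large subunit. MRPL24 (ENSG00000143314, chromosome 1 from 156737303 to 156741590 in GRCh38), a counterpart of a bacterial protein, was at 42.6, 36.7 and 52.1 FPKM in WT and at 69.8, 62.7 and 96.3 FPKM in KO. The groups did not overlap, and KO replicate 3 was well above both other KO lines. Its log2 fold change was 0.78 ± 0.20 (SE), with an adjusted p of 0.261 in limma. MRPL3, MRPL4, MRPL12, MRPL17, MRPL18, MRPL39, MRPL40, MRPL50, MRPL58, MRPS2, MRPS6, MRPS23 and MRPS26 had this same adjusted p, and for the other members named with values it was between 0.268 and 0.988 in limma.

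MRPL3 (ENSG00000114686, chromosome 3 from 131462212 to 131502983), a protein near the site of peptide bond formation, is the highest of this group by level. It was at 79.2, 78.4 and 102 FPKM in WT and at 142, 115 and 205 FPKM in KO. The log2 fold change was 0.80 ± 0.23 (SE), and leaving out 1 library at a time gave 0.57 to 0.99. MRPL17 (ENSG00000158042, chromosome 11 from 6680385 to 6683340), whose promoter holds the NRF1 letters shown above, was at 25.6, 29.4 and 31.5 FPKM in WT and at 43.98, 40.8 and 67.1 FPKM in KO. All KO values were above all WT values, KO replicate 3 standing apart, and the log2 fold change was 0.77 ± 0.21 (SE). MRPL50 (ENSG00000136897, chromosome 9 from 101387633 to 101398618), a mitochondria-specific protein, was at 9.80, 8.57 and 11.03 FPKM in WT and at 14.1, 14.4 and 18.9 FPKM in KO. Here KO replicates 1 and 2 were alike, and the log2 fold change of 0.66 ± 0.17 (SE) moved least among these genes when single libraries were left out, from 0.53 to 0.74.

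MRPL12 (ENSG00000262814, chromosome 17 from 81703367 to 81707517) forms the stalk that recruits translation factors and is also known to bind the mitochondrial RNA polymerase. It was at 34.8, 50.6 and 39.9 FPKM in WT and at 68.5, 54.1 and 115 FPKM in KO. WT replicate 2 came close to KO replicate 2, and KO replicate 3 exceeded both other KO lines, giving a log2 fold change of 0.86 ± 0.28 (SE), and 0.555 without KO replicate 3. Another protein of the stalk, MRPL10, which holds MRPL12 on the ribosome, behaved otherwise. MRPL10 was at 47.4, 51.1 and 34.1 FPKM in WT and at 40.9, 45.2 and 44.02 FPKM in KO. The KO values lay inside the WT range, and the log2 fold change was -0.01 ± 0.17 (SE), and 0.03 with TPM scaling. MRPL11, at the base of the stalk, was between the 2 with 0.34 ± 0.16 (SE), or 0.22 without KO replicate 3, its KO range of 40.6 to 55.8 FPKM overlapping the WT range of 34.0 to 41.9 FPKM.

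The other members with the smallest p were MRPL18, MRPL39, MRPL4 and MRPL40, with log2 fold changes from 0.52 to 0.75 and no overlap between the groups. With the chromosome medians removed, MRPL39, on chromosome 21, went from 0.75 to 0.31 and MRPL40, on chromosome 22, from 0.55 to 0.36. MRPL58 (ENSG00000167862, chromosome 17 from 75012670 to 75021261) is a peptidyl-tRNA hydrolase of the release factor family that became part of the large subunit. It was at 43.6, 37.8 and 39.1 FPKM in WT and at 47.2, 55.6 and 68.4 FPKM in KO. It differed from most members in that KO replicate 2 was above KO replicate 1, and its log2 fold change was 0.49 ± 0.16 (SE), 0.30 with the chromosome medians removed and 0.27 with library weights. MRPL45, which lies at the exit of the peptide tunnel and helps to hold the ribosome at the inner membrane, was at 31.9 to 43.6 FPKM in WT and at 36.9 to 46.6 FPKM in KO. Its log2 fold change was 0.12 ± 0.16 (SE), and -0.07 after the median of each chromosome had been removed.

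In the small subunit, MRPS6 (ENSG00000243927, chromosome 21 from 34073224 to 34143034) had the largest log2 fold change of all 78 genes, 1.11 ± 0.32 (SE). It was at 6.08, 3.76 and 9.32 FPKM in WT and at 12.9, 11.01 and 17.3 FPKM in KO. The groups did not overlap, although the WT lines varied more than 2-fold. The gene shares its strand and part of its span with SLC5A3, so that transcripts of both may be hard to separate, and other genes of chromosome 21 had a median log2 fold change of 0.39. With the chromosome medians removed, the log2 fold change of MRPS6 was 0.67. Of the 78 genes, 13 (16.7%) then had an unadjusted limma p of at most 0.05, against 8.96% of all tested genes, with a median log2 fold change of 0.23.

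MRPS26 (ENSG00000125901, chromosome 20 from 3046052 to 3048250), a mitochondria-specific protein, was at 20.7, 25.3 and 23.8 FPKM in WT and at 38.3, 27.4 and 57.5 FPKM in KO, with a log2 fold change of 0.75 ± 0.26 (SE), and 0.48 without KO replicate 3. KO replicate 2 was only just above WT replicate 2. MRPS23 had the same order of KO lines, from 11.2 to 14.8 FPKM in WT and from 15.3 to 29.5 FPKM in KO, with 0.70 ± 0.25 (SE), and 0.44 without KO replicate 3. MRPS2 (ENSG00000122140, chromosome 9 from 135499984 to 135504673), a protein that small subunits of all kinds contain, was at 69.6, 54.97 and 80.4 FPKM in WT and at 90.6, 94.5 and 139 FPKM in KO. The groups were apart, and the log2 fold change was 0.65 ± 0.21 (SE).

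MRPS12, a protein of the decoding centre, was at 16.6, 17.6 and 18.3 FPKM in WT and at 20.8, 19.99 and 31.2 FPKM in KO. The WT lines were close to each other, KO replicate 3 was well above both other KO lines, and the log2 fold change was 0.42 ± 0.19 (SE), and 0.22 without KO replicate 3. MRPS28 had a similar pattern, with 16.7 to 19.5 FPKM in WT, 21.4 to 31.7 FPKM in KO and a log2 fold change of 0.48 ± 0.18 (SE), which was 0.31 without KO replicate 3 and 0.26 with the chromosome medians removed. MRPS7, a protein of the head of the small subunit, overlapped in KO replicate 1, which at 65.1 FPKM was below the 68.6 FPKM of WT replicate 1.

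**Figure D4:**
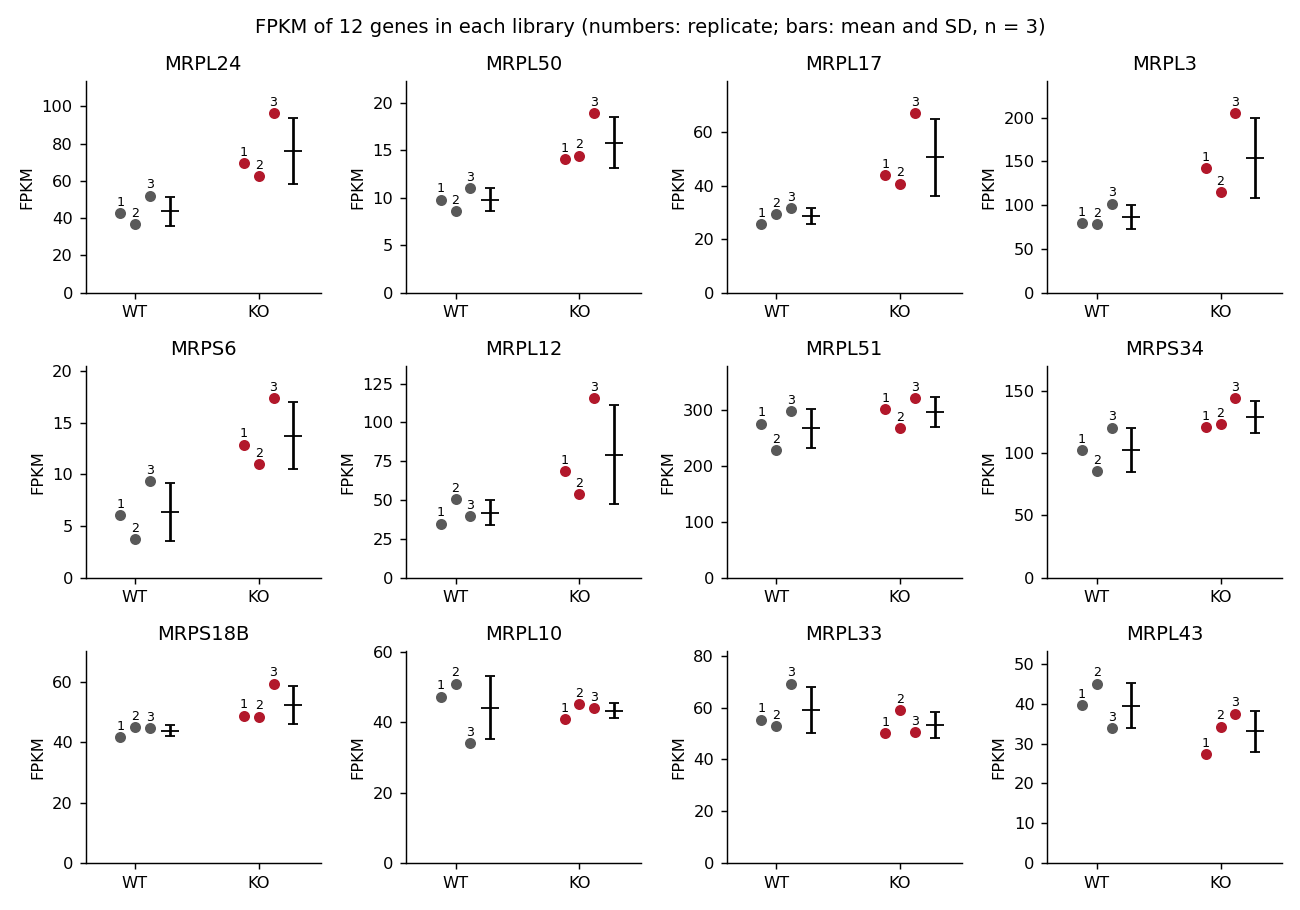
FPKM (y axis, from 0) of 12 genes in the 3 WT and 3 KO libraries (x axis); numbers beside the points are replicate numbers, bars to the right the mean and SD (n = 3). Groups are apart in the panels of MRPL24, MRPL50, MRPL17, MRPL3, MRPS6 and MRPL12, where KO replicate 3 is highest, and overlap for MRPL51, MRPL10, MRPL33 and MRPL43.

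A family of 3 paralogs, MRPS18A, MRPS18B and MRPS18C, allows related genes to be set side by side. MRPS18B was at 41.8, 44.9 and 44.7 FPKM in WT and at 48.8, 48.5 and 59.5 FPKM in KO. MRPS18A, which has its place in the large subunit, was at 38.6, 41.5 and 43.4 FPKM in WT and at 43.5, 43.4 and 47.2 FPKM in KO. MRPS18C, the counterpart of the bacterial protein, had lower levels, from 18.5 to 20.5 FPKM in WT and from 20.2 to 25.9 FPKM in KO. The groups were apart for MRPS18B, touched for MRPS18A and overlapped for MRPS18C. Their log2 fold changes were 0.25 ± 0.13, 0.12 ± 0.12 and 0.20 ± 0.15 (SE) for MRPS18B, MRPS18A and MRPS18C, and the differences between them were not tested. Without KO replicate 3 they were 0.15, 0.08 and 0.09.

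In the libraries as deposited, only 5 of the 78 genes had a log2 fold change below 0. None of these 5 genes had KO libraries all below WT there. MRPL43 (ENSG00000055950, chromosome 10 from 100969458 to 100987515), a mitochondria-specific protein, was at 39.7, 45.1 and 33.9 FPKM in WT and at 27.4, 34.3 and 37.6 FPKM in KO. KO replicate 1 was the lowest library, KO replicates 2 and 3 lay within the WT range, and the log2 fold change was -0.26 ± 0.17 (SE), with an adjusted p of 0.46 in limma. In KO replicate 1 the 461 other tested genes of chromosome 10 had a median log2 difference from WT of -0.33. There MRPL43 was at -0.51 and MRPS16, the other member on this chromosome, at -0.08. With the chromosome medians removed, the log2 fold change of MRPL43 was -0.10, and it was -0.13 without KO replicate 1 and -0.16 without WT replicate 2. MRPS16, of the small subunit, was at 47.5, 58.5 and 48.3 FPKM in WT and at 48.3, 47.4 and 76.0 FPKM in KO, so that KO replicate 3 alone was above the WT range, with a log2 fold change of 0.12 ± 0.21 (SE).

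MRPL33 was at 55.4, 53.0 and 69.3 FPKM in WT and at 50.1, 59.1 and 50.5 FPKM in KO. Its log2 fold change was -0.15 ± 0.15 (SE), and KO replicate 2 lay within the WT range. For MRPL53, MRPL48 and MRPL10 the log2 fold changes were -0.07, -0.02 and -0.01, with standard errors from 0.14 to 0.19, and the sign changed with the scaling or weighting of the libraries. MRPS14, MRPS33 and MRPL34 were just above 0, from 0.07 to 0.09, and were negative with median-of-ratios scaling. Of the 78 genes, 13 overlap another coding gene on the same strand and 36 have named pseudogenes, 81 in all, which can share fragments with them.

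Other components of mitochondrial translation were set beside the 78 genes. Of 5 ribosomal proteins whose symbols do not follow the rule, 4 had a log2 fold change above 0, with a median of 0.32. GADD45GIP1, a large-subunit protein, was at 13.2, 13.5 and 15.5 FPKM in WT and at 22.0, 16.8 and 24.8 FPKM in KO, with a log2 fold change of 0.56 ± 0.18 (SE). DAP3, a GTP-binding protein of the small subunit, had 0.32 ± 0.14 (SE) and AURKAIP1 0.40 ± 0.26 (SE). KO libraries were above all WT libraries for GADD45GIP1 and DAP3 but not for AURKAIP1. CHCHD1, on chromosome 10 like MRPL43, had -0.07 ± 0.21 (SE).

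For 26 genes of ribosome assembly and rRNA modification the median log2 fold change was 0.38, close to that of the 78 genes, and 25 were above 0. At an unadjusted limma p of at most 0.05, 10 of the 26 (38.5%) were higher and 0 lower, against 13.7% and 3.17% of all tested genes. All KO libraries were above all WT libraries in 11 of the 26 (42.3%), against 18.3% of all tested genes. They were all below in 1 of the 26, against 5.77% of all tested genes. The lowest log2 fold change of the list was -0.35. MRM1, a methyltransferase of the large rRNA, was at 4.34, 5.82 and 3.80 FPKM in WT and at 7.93, 8.17 and 15.8 FPKM in KO, with a log2 fold change of 1.06 ± 0.29 (SE). TFB1M, which methylates the small rRNA, had 0.81 ± 0.23 (SE), and DHX30, a helicase of ribosome assembly, 0.52 ± 0.17 (SE). All 3 were apart between the groups, with an adjusted p of 0.261 each in limma. Of 14 translation factors, 12 were above 0, with a median of 0.25. At an unadjusted limma p of at most 0.05, 2 (14.3%) were higher, against 13.7% of all tested genes. These were GFM1, the elongation factor that moves the ribosome along the mRNA (0.46 ± 0.16, SE), and SLIRP, which stabilizes mitochondrial mRNAs (0.61 ± 0.22, SE). TACO1, a translational activator, had 0.42 ± 0.18 (SE), and the initiation factor MTIF3, the lowest of the list, had -0.37 ± 0.16 (SE).

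The mRNAs that this ribosome translates stood on the other side. Of the 13 mRNAs of mitochondrial DNA, 12 had a log2 fold change below 0, with a median of -0.55, and 1, MT-ND3, had an unadjusted limma p of at most 0.05. MT-ND3, a subunit of complex I, was at 4720, 3727 and 4361 FPKM in WT and at 2662, 3522 and 2251 FPKM in KO, with a log2 fold change of -0.62 ± 0.25 (SE) and an adjusted p of 0.284 in limma. MT-ND4L had -0.64 ± 0.34 and MT-ATP8 -0.71 ± 0.42 (SE). The 13 mRNAs took up 27.6, 21.5 and 22.2% of all FPKM in WT and 15.8, 23.7 and 11.9% in KO. KO replicate 2 was thus within the WT range, while KO replicates 1 and 3 were below it. A smaller share of these mRNAs leaves a larger share for nuclear genes. When the libraries were scaled to the FPKM of nuclear genes alone, the median log2 fold change of the 78 genes was 0.26, against 0.01 for all tested genes, 71 were above 0, and 27 (34.6%) had all KO above all WT libraries, against 15.5% of all tested genes.

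Nuclear-encoded subunits of the respiratory chain and ATP synthase (78 genes) had a median log2 fold change of 0.09, close to that of all tested genes. At an unadjusted limma p of at most 0.05, 1 of them (1.28%) was higher, against 13.7% of all tested genes. This was NDUFV3 (0.47 ± 0.19, SE). NDUFB6 (0.43 ± 0.20, SE) and ATP5MC1 (0.40 ± 0.20, SE) followed. The 79 cytosolic ribosomal proteins had a median of 0.08, and 0 genes had such a p. Among them were RPL38 (0.35 ± 0.17, SE), RPL27 (0.32 ± 0.17, SE) and RPL13A (-0.30 ± 0.18, SE). Their summed FPKM did not separate the groups, with KO replicate 2 the lowest of all libraries and KO replicate 3 the highest.

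**Figure D5:**
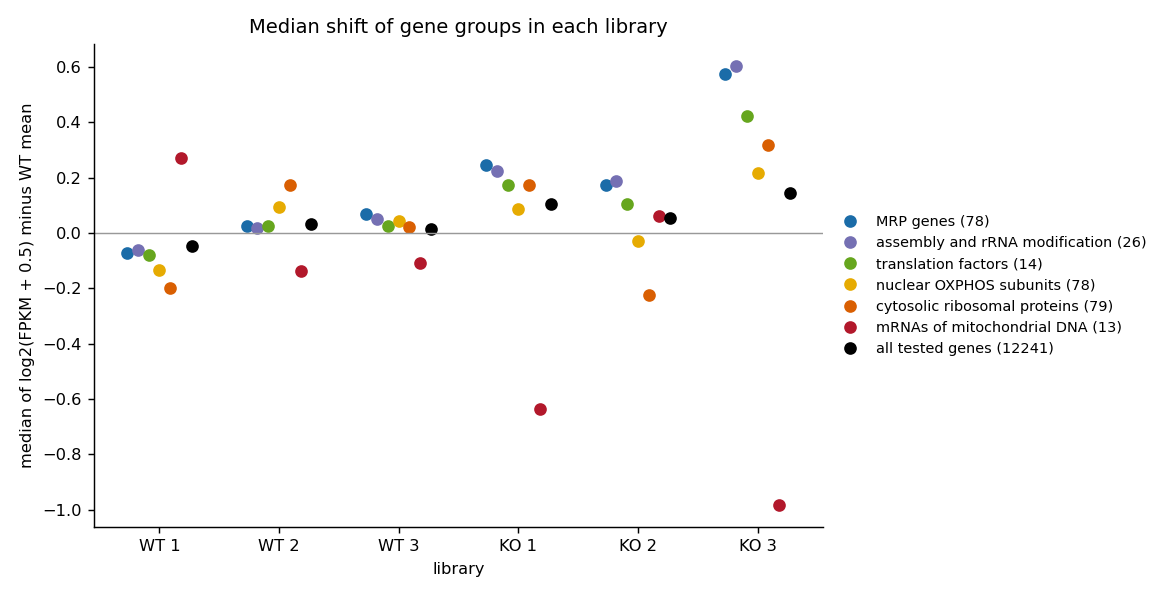
Median over the genes of a group of the difference of log2(FPKM + 0.5) from the WT mean (y axis) in each library (x axis); colours are gene groups, with the number of genes in brackets. Mitochondrial ribosomal protein (MRP) genes are at 0.25, 0.17 and 0.58 in KO, together with assembly genes at 0.23, 0.19 and 0.60, whereas mRNAs of mitochondrial DNA are at -0.64, 0.06 and -0.98.

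Single members were also set against the mean of the group. The mean of their log2 differences from WT was -0.07, 0.00 and 0.07 in WT and 0.26, 0.17 and 0.60 in KO. The Pearson correlation of a member with the mean of the other members over 6 libraries was above 0.9 for 38 genes and below 0.5 for 10, as a description in which KO replicate 3 weighs most. With the mean of all 78 genes, the correlation was above 0.9 for 38 members and for 13.8% of all tested genes. MRPL33 (-0.43), MRPL43 (-0.30) and MRPL10 (-0.14) had the lowest values of the members. Over all tested genes, the 5 most like this mean were MBD3 (r = 0.9996), SIVA1 (0.9986), TIMM21 (0.998), KLHL25 (0.9977) and FLAD1 (0.9974), none of which is a member. MBD3, a subunit of a chromatin remodelling complex, was at 18.5, 20.6 and 22.8 FPKM in WT and at 30.1, 27.1 and 49.1 FPKM in KO. TIMM21, a subunit of the translocase that imports proteins through the inner mitochondrial membrane, was at 18.1, 18.8 and 20.9 FPKM in WT and at 25.7, 23.4 and 35.8 FPKM in KO. Both had the order of KO replicates 3, 1, 2, which follows from their choice by likeness to the mean of the members.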

How the data were processed

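RNA of 3 WT and 3 FGFR2 KO HaCaT lines was converted to poly(A)-selected, stranded libraries. The authors removed adapters with fastp 0.20.0 and quantified genes with kallisto 0.46.1 against GRCh38.p13 and GENCODE release 37. The values that the authors deposited are FPKM per gene, and how kallisto's estimates were turned into FPKM is not given in the sources used here. The study tested estimated counts with a count model. Since the files hold FPKM, no count test was run. Of the low values, 66.9 to 74.7% were whole fragments within 0.05, at the depth chosen to make this share largest. At a depth fixed beforehand, 10% would be whole by chance. Depth, estimated from the steps of these low values, was 67500000 to 87700000 fragments.

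Of 21493 genes per table, 18 Y copies of pseudoautosomal genes with values identical to the X copy were left out. Symbols and positions came from GENCODE release 44 and were given to 21400 of 21475 genes. The 12241 genes whose mean was 0.5 FPKM or more entered limma (version 3.58.1, R 4.3.3) as log2(FPKM + 0.5), with a mean-variance trend and Benjamini-Hochberg adjustment. Log2 fold changes on this scale understate changes of low genes. The script was tested on simulated data, in which libraries of a genotype differed by random noise alone. How many changes it would call with the spread of these lines was not tested. Sets of genes are described by counts and medians without a test.

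Genes named are the 6 members with the highest and the 6 with the lowest level, the 8 highest and 8 lowest by log2 fold change, the 10 with the smallest p, the MRPS18 paralogs, members with a known role or on chromosome 10, and in each list of other genes the 3 with the smallest p. CHCHD1, MTIF3 and the markers DCN, VWF and SOX10 were named after their values were seen. The members and lists were chosen with earlier results of these data known. Alternatives were other pseudocounts (0.1 and 1), filters, scalings, empirical Bayes settings, library weights, removal of chromosome medians, a replicate block and leaving out each library. Median-of-ratios scaling together with leaving out KO replicate 3, and the count of groups that do not overlap without KO replicate 3 or WT replicate 2, were chosen after seeing the data.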

Additional observations from a re-analysis of the deposited data

How the results depend on the processing

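The test called 0 of the 78 genes under all alternatives except library weights, which called 18. These weights were dominated by WT replicate 1, with a weight of 10.26 against 0.358 to 1.495 for the others, and called 1396 of all tested genes. The 27 genes at an unadjusted limma p of at most 0.05 became 15 with median-of-ratios scaling (8.7% of all tested genes were higher in KO at this p), 17 with quantile normalization (9.23%), 44 with library weights (43 higher and 1 lower, 27.7% higher of all genes) and 13 after removal of chromosome medians (8.96%), and 8 to 36 when 1 library was left out (6.61% and 17.2%). Median-of-ratios scaling was also combined with leaving out KO replicate 3, a combination chosen after the data had been seen. Then 5 genes (6.41%) had this p, against 3.97% of all tested genes. The median log2 fold change was 0.12, against -0.01, and 59 of the 78 genes were above 0, against 48.2% of all tested genes. The number of genes whose groups do not overlap was 31 without KO replicate 3 (39.7%, against 19.7% of all tested genes) and 42 without WT replicate 2 (53.8%, against 27.1%). With a replicate block the number at an unadjusted limma p of 0.05 or less was 25 (32.1%), all higher in KO, against 14.1% of all tested genes. The numbers were not treated as pairs, because the labels do not state a pairing. Between WT and KO libraries of the same number, the deviations from the group means had r = -0.21, 0.23 and 0.05. Of 39 named members, 31 had the same sign under every alternative except median-of-ratios scaling without KO replicate 3, where single members were not followed. The log2 fold change of MRPL10 was 0.030 with TPM scaling, that of MRPL48 was 0.018 with TPM scaling and 0.072 with library weights, and that of MRPL53 was 0.073 with library weights. With median-of-ratios scaling, quantile normalization and removal of chromosome medians it was -0.006, -0.028 and -0.008 for MRPL34, -0.020, -0.039 and -0.008 for MRPS14 and -0.018, -0.040 and -0.023 for MRPS33. Scaling to nuclear genes gave -0.005 for MRPS14 and -0.003 for MRPS33, quantile normalization gave -0.004 for MRPS16, and removal of chromosome medians gave -0.065 for MRPL45. Leaving out 1 library gave -0.181 to 0.106 for MRPL10, -0.002 to 0.219 for MRPL45, -0.093 to 0.028 for MRPL48, -0.163 to 0.099 for MRPL53, -0.096 to 0.242 for MRPS16 and -0.007 to 0.119 for MRPS33. The cause of these changes was not tested. With 3 lines in each group and KO replicate 3 apart from the others, the size of the differences is uncertain. Each member value rests on at least 254 fragments per kb of transcript.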
